A study of Bos taurus with 12 samples.

Results

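The response of bovine mesenchymal stem cells to transforming growth factor β3 (TGF-β3) in low oxygen was read from 6 of the 12 arrays of the series, selected by their titles. The cells are multipotent stromal cells from the bone marrow of femurs and tibiae of 3 juvenile cattle under 6 months of age. In the first group, 3 arrays hold cells kept for a week at 2% oxygen with TGF-β3 at 10 ng/mL. In the second group, 3 arrays hold cells of the same donors kept at 2% oxygen without TGF-β3. For comparison, 3 arrays at 21% oxygen with TGF-β3 and 3 at 21% oxygen without it were used, again 1 per donor. All 12 cultures had been expanded through 1 earlier passage at 21% oxygen and were then preconditioned in high-glucose medium with 10% fetal bovine serum, and hypoxic cultures stayed in a closed workstation during changes of medium. RNA was taken at the end of that week, and a single culture per donor and condition was measured.

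TGF-β ligands are secreted in a latent complex and, once released, bring together type II and type I receptor kinases, which phosphorylate SMAD2 and SMAD3. These SMADs enter the nucleus with SMAD4 and change transcription together with other factors, and inhibitory SMADs, ubiquitin ligases and co-repressors are themselves induced and limit the signal. In mesenchymal stem cells the ligand is used to start cartilage formation, and it also induces contractile and fibrous matrix genes and restrains fat formation. Low oxygen acts through the hypoxia-inducible factors, whose targets include glucose transporters, glycolytic enzymes and angiogenic factors.

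Signals are given on a log2 scale, so a difference of 1 is a 2-fold change, and values of the 3 arrays of a group are listed for donors 1, 2 and 3. Each difference is the mean with TGF-β3 minus the mean without it at the same oxygen tension, ± the standard error from limma with donor as a block, for n = 3 arrays per group. A gene is said to have risen or fallen where limma's p-value stayed under 0.05 after Benjamini-Hochberg adjustment across the 26773 probe sets, and such probe sets are referred to as called. Genes of a list beyond its 6 largest called changes, and uncalled genes outside the TGF-β lists, were named after their values were seen. The number of arrays limits the precision. Array medians of the 6 hypoxic arrays lay between 6.60 and 6.66, the first quartile of all 12 arrays between 4.89 and 4.98, and arrays of 1 group correlated at 0.988 to 0.994. The stromal markers NT5E, THY1, ENG and CD44 had signals between 10.90 and 12.75 on the 6 arrays. Other stromal markers were lower, with PDGFRB between 9.28 and 10.31. The mean signal of all 22 stromal markers was 9.90 to 9.94 with TGF-β3 and 10.15 to 10.26 without. Of 12 haematopoietic markers 0 were called by limma and 3 had an unadjusted p under 0.05. The mean signal of the haematopoietic list was 5.78 to 5.87 with TGF-β3 and 5.80 to 5.91 without. PTPRC, which marks leukocytes, lay between 4.06 and 4.22, and LYZ between 3.10 and 3.82. Other members were higher, with LAPTM5 between 8.02 and 10.10 and CD14 between 6.63 and 7.43. The arrays measure whole cultures, so fewer cells of a type and less RNA per cell cannot be told apart.

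TGF-β3 changed 1869 of 26773 probe sets at 2% oxygen, which is 6.98% of those tested. Of these, 870 were higher with TGF-β3 (3.25%) and 999 were lower (3.73%). At an unadjusted p under 0.05 there were 5453. A change of at least 2-fold was found for 345 called probe sets (1.29% of all), 152 higher and 193 lower, and a change of at least 4-fold for 55. All 1869 moved the same way in the 3 donors, as did 39.2% of all probe sets, and in 1678 of them the 3 arrays with TGF-β3 did not overlap the 3 without, which held for 19.5% of all probe sets. The median size of a called difference was 0.59, against 0.12 over all probe sets, and the median signed difference over all probe sets was 0.01. A single symbol was available for 1637 of the called probe sets, and with 1 probe set per gene 1601 of 18087 named genes were called (8.85%), of which 701 rose (3.88%) and 900 fell (4.98%). Leaving out any 1 of the 6 hypoxic arrays lowered the number of called probe sets to between 920 and 1396. The lowest value came without the TGF-β3 array of donor 2, and only without the donor 3 array lacking TGF-β3 did the count stay within 1.5 times. Leaving out a whole donor left 484 without donor 1, 242 without donor 2 and 996 without donor 3, and 817 were called without the donor block. A fit of the 6 hypoxic arrays alone, with the block, called 529.

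The per-donor differences of all probe sets correlated at 0.476 between donors 1 and 2, at 0.438 between donors 1 and 3 and at 0.442 between donors 2 and 3, a description across probe sets that are not independent. Among called probe sets the median size of the difference was 0.55 in donor 1, 0.61 in donor 2 and 0.61 in donor 3. Of the 1869 calls, 720 held when any 1 hypoxic array was left out and 185 when any donor was left out. Of the 12 largest rises and 12 largest falls among named genes, 22 held without any 1 array and 17 without any 1 donor. Of 184 called genes taken by the rule for named genes, 113 held without any 1 array and 57 without any 1 donor. A call that held without any 1 array could thus still be lost without a donor.

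The largest rise among named genes was that of ALDH1A1 (probe set 12892676), a dehydrogenase that makes retinoic acid from retinaldehyde. Its signal was 12.86, 13.05 and 12.43 with TGF-β3 against 7.86, 7.88 and 6.24 without, a difference of 5.45 ± 0.40 (adjusted p = 0.000142) and 43.8-fold. PADI4 (probe set 12780935), which turns arginine residues of proteins into citrulline, had 11.86, 12.55 and 10.65 with TGF-β3 against 7.10, 7.44 and 6.04 without. It rose by 4.83 ± 0.15 (adjusted p = 1.79e-06), or 28.4-fold, with the smallest p of the named rises, and its difference was 4.76, 5.11 and 4.62 in the 3 donors. In both genes donor 3 was lowest with and without TGF-β3, and the groups were at least 3 log2 units apart. ATP6AP1L (probe set 12878509), named for its likeness to an accessory protein of the vacuolar ATPase, had 9.56, 10.19 and 10.45 with TGF-β3 against 6.12, 5.31 and 6.68 without. It rose by 4.04 ± 0.27 (adjusted p = 0.000117). PTGER3 (probe set 12836019), a receptor for prostaglandin E2, had 10.48, 9.97 and 9.98 with TGF-β3 against 7.52, 6.66 and 5.33 without. The rise was 3.64 ± 0.34 (adjusted p = 4e-04). EMB (probe set 12786697), embigin, a membrane glycoprotein that partners lactate transporters, had 10.42, 10.03 and 10.16 with TGF-β3 against 7.17, 6.07 and 6.57 without. With TGF-β3 it rose by 3.60 ± 0.33 (adjusted p = 0.000359). The donors were closer to each other with TGF-β3 than without it for PTGER3, with an SD of 0.292 with TGF-β3 and 1.1 without.

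PRR5L (probe set 12727012), which binds the kinase complex mTORC2, had 8.90, 9.14 and 8.87 with TGF-β3 against 6.07, 5.90 and 6.18 without, a rise of 2.92 ± 0.23 (adjusted p = 0.000168). The growth factor gene FGF18 (probe set 12786113), which acts on chondrocytes, had 9.63, 8.97 and 9.03 with TGF-β3 against 6.48, 6.31 and 7.04 without. The gene rose by 2.60 ± 0.21 (adjusted p = 0.000228). G0S2 (probe set 12738995), an inhibitor of the main triglyceride lipase, had 9.55, 10.11 and 10.29 with TGF-β3 against 7.62, 7.12 and 7.88 without, a rise of 2.45 ± 0.22 (adjusted p = 0.000337). In these 3 genes the donors lay within 1 log2 unit of each other in each group. DPT (probe set 12738788), the matrix protein dermatopontin, had 12.06, 11.93 and 11.72 with TGF-β3 against 10.55, 9.72 and 8.27 without. It rose by 2.40 ± 0.39 (adjusted p = 0.00645). ITGA2 (probe set 12786958), the α2 chain of a collagen-binding integrin, had 6.98, 6.89 and 7.64 with TGF-β3 against 4.93, 4.35 and 5.16 without, a rise of 2.36 ± 0.17 (adjusted p = 0.000136). DES (probe set 12774318), the intermediate filament protein of muscle, had 12.19, 12.25 and 10.86 with TGF-β3 against 10.10, 8.73 and 9.80 without and rose by 2.22 ± 0.39 (adjusted p = 0.00962). The serotonin receptor gene HTR2A (probe set 12711253) had 8.47, 8.33 and 8.60 with TGF-β3 against 6.40, 6.75 and 5.65 without. The rise was 2.20 ± 0.25 (adjusted p = 0.000978). No group overlapped the other in any of the 12 largest rises, which were chosen by size, as in 1678 of all 1869 called probe sets. ITGA2 lay near or below the first quartile of the arrays without TGF-β3, where signal above background was not tested.

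ABI3BP (probe set 12686145), a matrix protein, fell the most among named genes. Its signal was 4.58, 5.66 and 5.98 with TGF-β3 against 9.56, 12.17 and 11.29 without, a fall by 5.60 ± 0.56 (adjusted p = 0.000577), or 48.5-fold. FABP4 (probe set 12724247), the fatty acid carrier of adipocytes, had 3.53, 3.43 and 4.96 with TGF-β3 against 7.81, 8.13 and 9.05 without. It fell by 4.36 ± 0.22 (adjusted p = 5.89e-05). With TGF-β3, FABP4 was below the first quartile of the arrays in donors 1 and 2 and near it in donor 3, and ABI3BP was below it in donor 1. ANGPT2 (probe set 12824843), an angiopoietin that acts on blood vessels, had 6.68, 6.21 and 6.55 with TGF-β3 against 9.70, 9.23 and 9.85 without. With TGF-β3 it fell by 3.12 ± 0.17 (adjusted p = 6.22e-05). CYP1B1 (probe set 12705362), a cytochrome P450 under control of the aryl hydrocarbon receptor, had 6.20, 5.68 and 5.91 with TGF-β3 against 8.75, 8.45 and 9.81 without. The gene fell by 3.08 ± 0.48 (adjusted p = 0.00528). ULBP21 (probe set 12901571), of a family of ligands for a receptor of natural killer cells, had 5.72, 5.61 and 6.05 with TGF-β3 against 8.28, 8.18 and 8.91 without. This was a fall by 2.66 ± 0.25 (adjusted p = 0.000401). Donors were close to each other in ANGPT2 and ULBP21, and donor 3 was highest without TGF-β3 in both and in CYP1B1.

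CXCL14 (probe set 12884960), a chemokine gene, had 5.66, 5.89 and 5.96 with TGF-β3 against 8.02, 7.66 and 11.18 without. It fell by 3.12 ± 0.65 (adjusted p = 0.0204). Its array of donor 3 without TGF-β3 stood apart from the others, and the call was lost when that array, or the TGF-β3 array of donor 1 or donor 3, was left out, and also without the donor block. PTGFR (probe set 12842705), the receptor for prostaglandin F2α, had 4.99, 4.81 and 4.78 with TGF-β3 against 7.63, 9.25 and 5.59 without, a fall by 2.63 ± 0.54 (adjusted p = 0.0192). Donors 1, 2 and 3 differed by -2.64, -4.44 and -0.81. It was no longer called without either array of donor 1, without the TGF-β3 array of donor 2 and without the donor block. The chemokine gene CXCL5 (probe set 12870010) had 7.20, 7.17 and 6.51 with TGF-β3 against 9.89, 9.20 and 9.52 without. With TGF-β3 it fell by 2.58 ± 0.19 (adjusted p = 0.000142). GPNMB (probe set 12849788), a transmembrane glycoprotein of osteoblasts and macrophages, had 6.28, 6.89 and 8.02 with TGF-β3 against 8.91, 9.28 and 10.73 without, a fall by 2.58 ± 0.23 (adjusted p = 0.000319). The per-donor differences were -2.69, -2.03 and -3.01 for CXCL5 and -2.63, -2.39 and -2.71 for GPNMB. The remaining members of the 12 largest falls were the serine protease homologue PRSS35 (probe set 12898870, -2.56 ± 0.36, adjusted p = 0.00329), the membrane protein LRRN1 (probe set 12800052, -2.49 ± 0.26, adjusted p = 0.000798) and the lipid carrier APOD (probe set 12682282, -2.44 ± 0.37, adjusted p = 0.00503). The groups did not overlap in any of the 12 falls, which were likewise chosen by size.

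**Figure D1:**
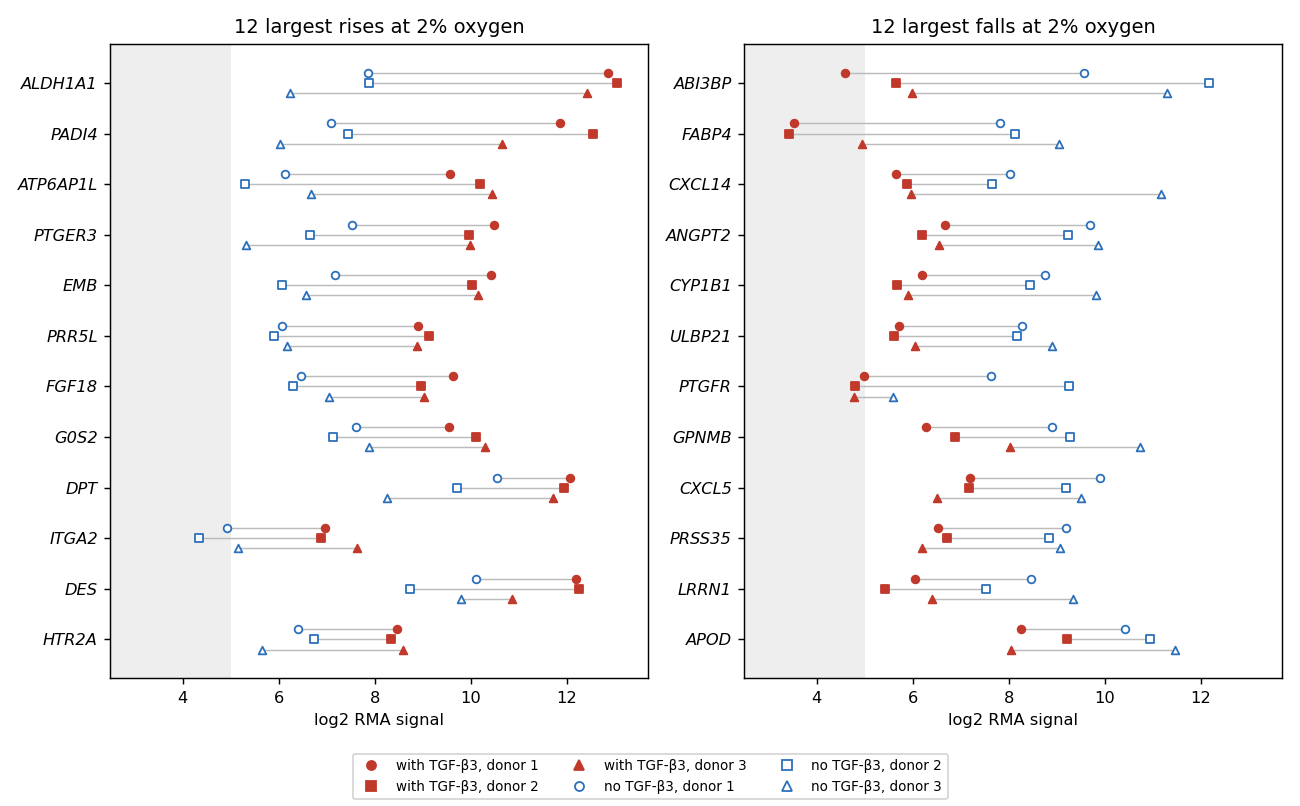
Signal of the 12 largest rises (left) and 12 largest falls (right) among named genes at 2% oxygen, on the log2 RMA scale, with donors offset within each gene. Filled symbols are arrays with TGF-β3, open symbols arrays without, a grey line joins the arrays of 1 donor, and the grey band marks signals below about the first quartile of the arrays. The genes were chosen by size of change, and the 2 groups do not overlap in any of them. CXCL14 and PTGFR have the widest spread among donors without TGF-β3.

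Some smaller differences were more precise. The smallest p among falls was that of UNC5C, a netrin receptor, which had 6.26, 6.24 and 7.00 with TGF-β3 against 8.02, 8.20 and 8.84 without. The gene fell by 1.86 ± 0.08 (adjusted p = 2.22e-05). SKIL, FSTL3, MATN2 and MVB12B were close in precision among the rises. MATN2, matrilin-2, a matrix adaptor protein, had 10.13, 10.67 and 10.39 with TGF-β3 against 8.18, 8.68 and 8.32 without and rose by 2.00 ± 0.13 (adjusted p = 9.64e-05), and MVB12B, a subunit of an endosomal sorting complex, rose by 1.51 ± 0.09 (adjusted p = 9.33e-05). ECM2, a matrix protein, fell by 1.44 ± 0.09 (adjusted p = 9.33e-05), and FLRT3, a cell adhesion protein, by 1.58 ± 0.09 (adjusted p = 9.23e-05). In MATN2 the per-donor differences were 1.95, 1.99 and 2.07, and in ECM2 -1.48, -1.57 and -1.28.

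Of 23 measured genes for TGF-β family ligands, latency proteins and receptors, 4 rose and 3 fell, and the median difference of the list was -0.12. Among all named genes 3.88% rose and 4.98% fell, with a median of 0.001. TGFB2 was the TGF-β ligand gene that rose, with 10.72, 10.71 and 10.38 with TGF-β3 against 9.23, 9.39 and 9.47 without, a difference of 1.24 ± 0.14 (adjusted p = 0.00102). The other TGF-β ligand genes were not called, with differences of -0.23 for TGFB1 and -0.37 for TGFB3, the gene of the ligand that was added. INHBA, the activin A chain, had 11.55, 11.65 and 11.54 with TGF-β3 against 11.05, 10.92 and 10.52 without. With TGF-β3 it rose by 0.75 ± 0.18 (adjusted p = 0.0374). FSTL3, a secreted protein that binds and neutralises activin, had 10.96, 10.94 and 10.85 with TGF-β3 against 9.08, 8.49 and 8.78 without. The gene rose by 2.14 ± 0.12 (adjusted p = 9.23e-05). Its 3 arrays with TGF-β3 had an SD of 0.057, against 0.299 without. Follistatin, FST, with the same role, differed by -0.51 ± 0.30 (adjusted p = 0.399) and was not called, with 8.98, 7.66 and 7.43 with TGF-β3 against 8.69, 8.13 and 8.77 without.

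The latent TGF-β binding proteins store the ligand in the matrix. LTBP1 had 11.55, 11.93 and 11.43 with TGF-β3 against 10.63, 10.66 and 10.67 without and rose by 0.98 ± 0.13 (adjusted p = 0.00206), LTBP2 had 10.00, 10.12 and 10.09 with TGF-β3 against 10.66, 10.72 and 10.78 without and fell by 0.65 ± 0.11 (adjusted p = 0.00881), and LTBP3 differed by -0.32 ± 0.12 (adjusted p = 0.163). LRRC32, which presents latent TGF-β on the cell surface, had 6.73, 6.93 and 6.08 with TGF-β3 against 5.93, 5.88 and 5.57 without and was not called (0.79 ± 0.26, adjusted p = 0.118), although its groups did not overlap. The type I and type II receptors for TGF-β were not called, with differences of 0.13 for TGFBR1 and -0.11 for TGFBR2. Both co-receptors fell. TGFBR3, betaglycan, had 6.41, 7.01 and 7.54 with TGF-β3 against 7.87, 8.39 and 9.22 without and fell by 1.51 ± 0.11 (adjusted p = 0.000135), and ENG, endoglin, had 11.23, 10.99 and 11.16 with TGF-β3 against 11.74, 11.44 and 11.36 without. This was a fall by 0.39 ± 0.09 (adjusted p = 0.0289). The further receptor genes ACVR1B, ACVR2A, ACVR2B and ACVRL1 differed by 0.11, -0.28, 0.08 and 0.04 and none was called. Of the 7 calls in this list, 5 held when any 1 hypoxic array was left out, while the call of INHBA was lost without any of the 6 and that of ENG without any of 5.

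Of 21 SMADs and SMAD regulators, 7 rose and 2 fell, with a median of 0.09. The rises were those of feedback inhibitors and ubiquitin ligases. PMEPA1, which sequesters receptor-regulated SMADs, had 12.02, 12.07 and 11.92 with TGF-β3 against 10.40, 9.83 and 10.18 without. It rose by 1.87 ± 0.12 (adjusted p = 0.000117). SKIL, a nuclear co-repressor of SMAD complexes, had 10.46, 10.41 and 10.22 with TGF-β3 against 9.29, 9.15 and 8.99 without, a rise of 1.22 ± 0.07 (adjusted p = 9.33e-05) that was 1.17, 1.27 and 1.23 in the 3 donors. The inhibitory SMAD7 had 9.49, 8.88 and 9.62 with TGF-β3 against 9.12, 8.45 and 9.02 without. The rise was 0.47 ± 0.10 (adjusted p = 0.0241). Its groups overlapped, and every donor was higher with TGF-β3. The ubiquitin ligase genes NEDD4L, SMURF2 and WWP2 rose by 0.83, 0.53 and 0.39, and LDLRAD4, which like PMEPA1 binds SMADs at membranes, rose by 0.73. The adjusted p-values of these 4 lay between 0.00163 and 0.0304.

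SMAD3, which carries the TGF-β signal, had 8.83, 9.07 and 9.01 with TGF-β3 against 9.48, 9.49 and 9.39 without. It fell by 0.48 ± 0.10 (adjusted p = 0.0209). SMAD6, the inhibitory SMAD of the BMP branch, had 7.42, 7.31 and 6.89 with TGF-β3 against 8.25, 7.82 and 8.44 without. With TGF-β3 it fell by 0.96 ± 0.23 (adjusted p = 0.0364). SMAD4, SMAD1, SMAD5, SMAD9, SMURF1 and the co-repressors SKI and TGIF1 were not called, with differences of 0.04, -0.07, 0.20, -0.33, 0.00, -0.28 and 0.36. BAMBI, a decoy receptor, had 4.90, 4.46 and 4.60 with TGF-β3 against 5.09, 4.92 and 5.38 without and was not called either (-0.48 ± 0.14, adjusted p = 0.0837). Of the 9 calls, those of SKIL, PMEPA1 and NEDD4L held without any 1 hypoxic array. The call of SMAD6 was lost without any of 5 arrays, those of SMAD3, SMAD7, SMURF2 and WWP2 without any of 4 arrays, and that of LDLRAD4 without any of 3.

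Of 29 measured TGF-β target genes, 11 rose and 3 fell, with a median of 0.27. PTHLH, the parathyroid hormone-related peptide that restrains chondrocyte hypertrophy, had 9.20, 9.33 and 9.31 with TGF-β3 against 7.60, 7.79 and 6.12 without. With TGF-β3 it rose by 2.11 ± 0.30 (adjusted p = 0.00331). The metalloprotease gene ADAM19 had 10.79, 10.96 and 10.95 with TGF-β3 against 9.40, 8.93 and 9.01 without. The gene rose by 1.79 ± 0.13 (adjusted p = 0.000135). IL11 and LIF, cytokines that signal through the same gp130 receptor chain, rose by 1.22 ± 0.12 (adjusted p = 0.000472) and 1.18 ± 0.09 (adjusted p = 0.000193). NOX4, an oxidase that produces hydrogen peroxide, had 5.20, 5.48 and 4.90 with TGF-β3 against 4.07, 3.97 and 4.22 without and rose by 1.11 ± 0.13 (adjusted p = 0.00158), with values without TGF-β3 below the first quartile of the arrays. CCN1, a matricellular protein, had 12.35, 12.39 and 12.46 with TGF-β3 against 11.31, 11.02 and 11.70 without and rose by 1.06 ± 0.16 (adjusted p = 0.00434), whereas CCN2, connective tissue growth factor, had 13.06, 13.22 and 13.25 with TGF-β3 against 12.70, 12.76 and 12.92 without, a smaller rise of 0.39 ± 0.08 (adjusted p = 0.0165).

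SPHK1, JUNB, EDN1 and BHLHE40, a lipid kinase, an AP-1 subunit, the vasoconstrictor endothelin-1 and a transcriptional repressor, rose by 0.79, 0.75, 0.69 and 0.57, with adjusted p-values between 0.00514 and 0.0448. Without TGF-β3, EDN1 lay below the first quartile of the arrays. The falls were those of ELN, elastin, with 7.48, 8.40 and 7.39 with TGF-β3 against 8.65, 9.69 and 8.50 without (-1.19 ± 0.19, adjusted p = 0.00559), of the cell-cycle inhibitor CDKN1A with 8.73, 8.67 and 9.03 with TGF-β3 against 9.47, 9.30 and 10.49 without (-0.94 ± 0.15, adjusted p = 0.00682) and of TIMP1, an inhibitor of matrix metalloproteinases, with 13.39, 13.15 and 13.42 with TGF-β3 against 13.75, 13.65 and 13.84 without (-0.43 ± 0.07, adjusted p = 0.00903). CDKN2B, another cell-cycle inhibitor, differed by -0.73 ± 0.25 (adjusted p = 0.123) and was not called. TGFBI, a matrix protein named for its induction by TGF-β, had 10.45, 11.00 and 10.13 with TGF-β3 against 9.51, 9.46 and 10.12 without. Its groups did not overlap, but donor 3 differed by 0.01 and it was not called (0.84 ± 0.25, adjusted p = 0.0788). FN1, THBS1 and the transcription factor KLF10 were not called, with differences of 0.16, 0.02 and 0.01. For FN1 the groups did not overlap, with 13.87, 13.91 and 13.86 with TGF-β3 against 13.77, 13.76 and 13.64 without. SNAI1 and SNAI2, repressors of the epithelial programme, were not called either (differences of 0.57 and 0.27, adjusted p = 0.0786 and 0.0963). Of the 14 calls, 10 held without any 1 array, and the calls of CCN2, JUNB, EDN1 and TIMP1 did not. TIMP1 lost its call without the TGF-β3 array of donor 2 only, and the other 3 without any of 5 arrays.

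**Figure D2:**
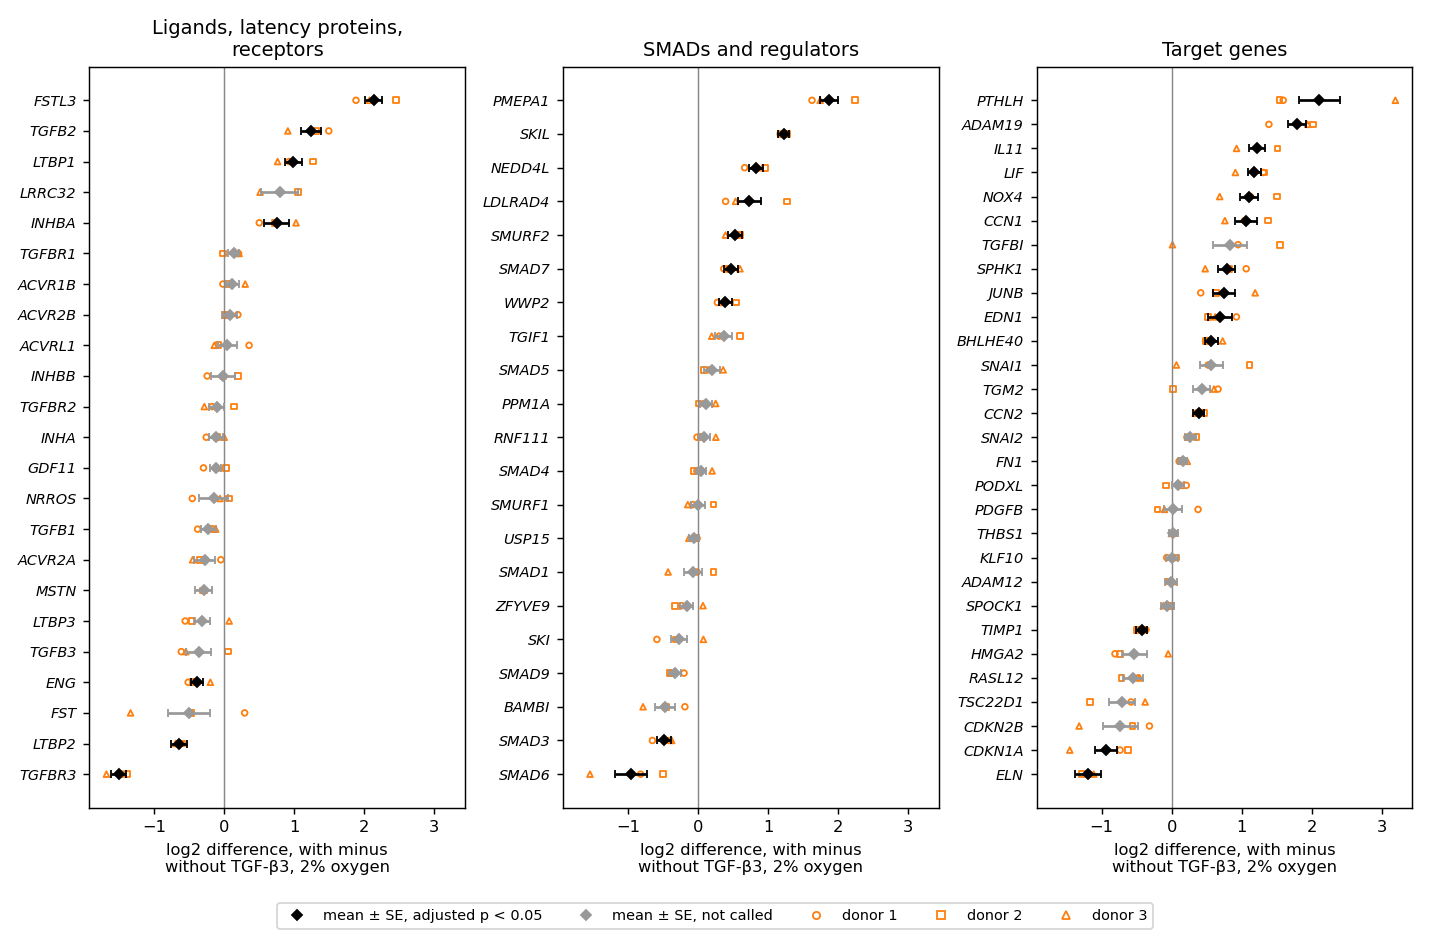
Log2 difference at 2% oxygen, with minus without TGF-β3, for every measured gene of 3 lists: ligands, latency proteins and receptors (left), SMADs and regulators (middle) and target genes (right). Diamonds with bars are the mean and its standard error, black where the adjusted p was under 0.05 and grey otherwise, and open symbols are the 3 donors. FSTL3, PMEPA1 and PTHLH are highest in their lists and TGFBR3, SMAD6 and ELN lowest.

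Of 30 measured genes of the bone morphogenetic protein (BMP) branch, which signals through other SMADs, 1 rose and 9 fell, with a median of -0.16. The ligand gene BMP2 had 8.30, 8.20 and 8.31 with TGF-β3 against 9.48, 8.97 and 10.57 without. The gene fell by 1.41 ± 0.24 (adjusted p = 0.00774). BMP4 had 10.15, 9.99 and 10.52 with TGF-β3 against 10.90, 10.74 and 11.53 without. This was a fall by 0.84 ± 0.08 (adjusted p = 0.000537). For BMP2 the SD among donors was 0.063 with TGF-β3 and 0.816 without. BMP5 fell by 0.65 ± 0.17 (adjusted p = 0.0486), and so did the BMP-binding protein BMPER (-0.55 ± 0.11, adjusted p = 0.0153). The antagonist gene CHRD, chordin, was the rise, with 7.17, 7.13 and 7.22 with TGF-β3 against 6.74, 6.41 and 7.00 without (0.46 ± 0.11, adjusted p = 0.0411). The transcriptional regulator ID2, a direct BMP target, had 10.67, 10.21 and 9.74 with TGF-β3 against 11.29, 11.17 and 11.19 without and fell by 1.01 ± 0.17 (adjusted p = 0.00853), while the related ID1 and ID3, named after their values were seen, were not called (differences of -0.65 and -0.05, adjusted p = 0.161 and 0.908).

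The homeobox gene DLX3, which acts in bone formation, had 6.00, 6.06 and 5.97 with TGF-β3 against 7.56, 6.95 and 8.23 without and fell by 1.57 ± 0.21 (adjusted p = 0.00279). Its relative DLX5 had 6.97, 6.39 and 6.10 with TGF-β3 against 8.09, 7.53 and 8.40 without and fell by 1.52 ± 0.25 (adjusted p = 0.00674). TBX3 and ATOH8, 2 further transcription factor genes that respond to BMPs, fell, with differences of -0.90 and -0.66 (adjusted p = 0.00435 and 0.00674). Of the 10 calls, 7 held without any 1 array, and those of BMP5, CHRD and BMPER did not.

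Of 27 measured contractile genes and targets of the serum response factor, 14 rose and 0 fell. In this list 26 differences were above 0 and the median was 0.41. DES was highest, as given above. CNN1, calponin, which binds actin in smooth muscle, had 12.51, 12.60 and 11.77 with TGF-β3 against 11.37, 10.90 and 10.66 without. It rose by 1.32 ± 0.17 (adjusted p = 0.00204). SMTN, smoothelin, had 9.50, 9.79 and 9.10 with TGF-β3 against 8.99, 8.66 and 8.49 without. The rise was 0.75 ± 0.12 (adjusted p = 0.00598). TAGLN, transgelin, had 12.93, 13.00 and 12.72 with TGF-β3 against 12.32, 12.24 and 12.23 without. With TGF-β3 it rose by 0.62 ± 0.08 (adjusted p = 0.00209). In each of these the lowest array with TGF-β3 lay above the highest array without. The transcriptional activators of this programme rose as well, SRF, the serum response factor, by 0.59 ± 0.10 (adjusted p = 0.00802) and its cofactor MYOCD, myocardin, by 0.72 ± 0.14 (adjusted p = 0.0167). TPM1, TPM4, ACTN1, CNN2, CSRP1, LMOD1, PALLD and TAGLN2, which code for actin-binding proteins, rose by between 0.36 and 0.62. MYH11, the smooth muscle myosin heavy chain, was the member below 0, at -0.20, and was not called. Of the 14 calls 7 held without any 1 array (TAGLN, CNN1, DES, TPM4, SMTN, SRF and ACTN1), and without donor 1 or without donor 2 just 1 was left in each case.

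Among 20 collagen genes, 4 rose and 2 fell, with a median of -0.10. The type I collagen genes COL1A1 and COL1A2 were not called and differed by -0.08 and -0.07. COL3A1, a fibrillar collagen that accompanies type I, had 11.79, 12.11 and 11.45 with TGF-β3 against 12.56, 12.57 and 12.48 without. It fell by 0.76 ± 0.15 (adjusted p = 0.0169). COL14A1, which binds to fibril surfaces, had 9.10, 9.24 and 9.66 with TGF-β3 against 10.34, 10.69 and 9.97 without. With TGF-β3 it fell by 1.00 ± 0.20 (adjusted p = 0.0165). The short-chain collagen genes COL8A1 and COL8A2 rose by 0.81 ± 0.15 (adjusted p = 0.0126) and 0.83 ± 0.20 (adjusted p = 0.0371). COL12A1, another fibril-associated collagen, rose by 0.45 ± 0.08 (adjusted p = 0.00881), and COL18A1, a basement membrane collagen, by 0.73 ± 0.16 (adjusted p = 0.0295). None of the 6 calls held without each of the arrays in turn. COL12A1 lost its call without the TGF-β3 array of donor 2 only, COL8A1 without that array or the donor 1 array lacking TGF-β3, COL3A1 and COL14A1 without any of 4 arrays and COL8A2 and COL18A1 without any of 5.

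Matrix glycoproteins and proteoglycans held 4 rises and 10 falls among 29 measured, with a median of -0.19. Beside DPT, the rises were those of FBLN5, fibulin-5, with 10.93, 11.21 and 10.39 with TGF-β3 against 9.98, 9.95 and 9.15 without (1.15 ± 0.15, adjusted p = 0.00265), of POSTN, periostin, with 12.87, 12.42 and 12.89 with TGF-β3 against 11.39, 9.31 and 10.94 without (2.18 ± 0.39, adjusted p = 0.0108) and of HAS2, a hyaluronan synthase, with 8.57, 8.06 and 9.11 with TGF-β3 against 7.99, 7.72 and 8.19 without (0.61 ± 0.13, adjusted p = 0.0208). For POSTN the SD among donors was 0.269 with TGF-β3 and 1.1 without. EFEMP1, fibulin-3, had 5.16, 5.92 and 4.56 with TGF-β3 against 8.18, 8.16 and 6.10 without. The gene fell by 2.27 ± 0.32 (adjusted p = 0.00346). SVEP1, a large adhesion protein, had 5.96, 5.65 and 5.29 with TGF-β3 against 7.26, 7.43 and 7.90 without. This was a fall by 1.90 ± 0.25 (adjusted p = 0.00243). Small leucine-rich proteoglycans, which bind collagen and in part TGF-β itself, were among the falls. ASPN had 10.80, 11.48 and 11.30 with TGF-β3 against 12.32, 12.50 and 12.46 without (-1.23 ± 0.11, adjusted p = 0.000351), DCN, decorin, had 12.66, 12.35 and 12.75 with TGF-β3 against 13.37, 13.38 and 13.29 without (-0.76 ± 0.15, adjusted p = 0.0182), and OGN and PRELP differed by -0.70 and -0.50 (adjusted p = 0.00063 and 0.00786). TNC, THBS2 and FBN1 fell with differences of -0.58, -0.82 and -0.47. Of the 14 calls, 9 held without any 1 array, and those of FBN1, POSTN, THBS2, DCN and HAS2 did not. POSTN lost its call without either array of donor 2.

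Of 20 genes for collagen modification and crosslinking, 4 rose and 1 fell, with a median of 0.04. PLOD2, the lysyl hydroxylase of collagen telopeptides, had 12.56, 12.70 and 12.49 with TGF-β3 against 11.64, 11.60 and 11.61 without. The gene rose by 0.97 ± 0.08 (adjusted p = 0.000257). LOXL4, a lysyl oxidase, had 10.24, 10.82 and 10.06 with TGF-β3 against 8.68, 8.48 and 9.74 without and rose by 1.41 ± 0.31 (adjusted p = 0.0262), and a second probe set of this gene gave 0.94. The lysyl oxidase gene LOXL2 and the procollagen protease gene BMP1 rose by 0.51 ± 0.09 (adjusted p = 0.0108) and 0.42 ± 0.08 (adjusted p = 0.0172). PCOLCE2, an enhancer of that protease, had 11.17, 10.56 and 11.69 with TGF-β3 against 12.14, 11.80 and 12.68 without. It fell by 1.07 ± 0.14 (adjusted p = 0.0023). LOX itself was not called (0.15), and TGM2, transglutaminase 2, was not either (0.43 ± 0.12, adjusted p = 0.0753). The calls of PLOD2 and PCOLCE2 held without any 1 array. That of LOXL2 was lost without the TGF-β3 array of donor 2, and those of LOXL4 and BMP1 without any of 4 arrays.

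Matrix proteases and their inhibitors had 3 rises and 8 falls among 26, with a median of -0.44. Both the activator and the receptor of the urokinase system rose. PLAU, urokinase, had 11.45, 10.82 and 12.39 with TGF-β3 against 10.22, 10.11 and 10.27 without (1.35 ± 0.26, adjusted p = 0.0148) and its receptor gene PLAUR had 12.50, 12.20 and 12.99 with TGF-β3 against 11.37, 10.46 and 11.98 without (1.29 ± 0.18, adjusted p = 0.00359). SERPINE2, which inhibits urokinase and thrombin, had 11.71, 11.64 and 11.60 with TGF-β3 against 12.57, 12.96 and 12.84 without. With TGF-β3 it fell by 1.14 ± 0.10 (adjusted p = 0.000324). The collagenase gene MMP13, which cleaves cartilage collagen, had 3.37, 3.38 and 3.73 with TGF-β3 against 5.25, 4.18 and 5.94 without and fell by 1.63 ± 0.24 (adjusted p = 0.00455), with all 3 arrays with TGF-β3 below the first quartile. MMP19 had 7.45, 7.29 and 6.92 with TGF-β3 against 8.77, 8.69 and 8.69 without. The gene fell by 1.50 ± 0.11 (adjusted p = 0.000135). The inhibitor TIMP3 and the collagen-cleaving cathepsin gene CTSK fell, with differences of -0.59 and -0.56 (adjusted p = 0.00241 and 0.00322). ADAMTS6 rose by 0.74 ± 0.19 (adjusted p = 0.0499), at the edge of the threshold. The calls of PLAU, ADAMTS6, TIMP1 and PRSS23 did not hold without each array in turn, and PLAU lost its call without either array of donor 3 or the donor 1 array lacking TGF-β3.

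Integrin and laminin genes changed in both directions, with 5 rises and 4 falls among 23 and a median of 0.01. Beside ITGA2, the integrin genes ITGA8 and ITGB3 rose, and so did ITGA5 of the stromal marker list. ITGA8 had 10.36, 10.72 and 9.82 with TGF-β3 against 8.83, 8.55 and 7.54 without (2.00 ± 0.14, adjusted p = 0.000119), ITGB3 had 10.97, 11.22 and 10.84 with TGF-β3 against 9.97, 9.98 and 9.52 without (1.19 ± 0.10, adjusted p = 0.000209), and ITGA5, of the fibronectin receptor, had 12.63, 12.65 and 12.56 with TGF-β3 against 12.20, 11.98 and 11.66 without (0.67 ± 0.12, adjusted p = 0.00955). ITGBL1, an integrin-like secreted protein, had 8.09, 7.86 and 7.15 with TGF-β3 against 10.24, 10.47 and 9.66 without and fell by 2.43 ± 0.23 (adjusted p = 0.000456). ITGA10, a collagen receptor of chondrocytes, and ITGB5 fell, with differences of -1.02 and -0.98 (adjusted p = 0.0121 and 0.0156). The laminin genes went both ways, LAMB3 rising by 0.82 ± 0.09 (adjusted p = 0.000969) and LAMA5 by 0.50 ± 0.13 (adjusted p = 0.0476), and LAMB2 falling by 0.62 ± 0.08 (adjusted p = 0.00265). Of the 9 calls, those of ITGA10, ITGB5 and LAMA5 did not hold without each array in turn.

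Of 24 measured cartilage genes, 2 rose and 5 fell, with a median of -0.08. ACAN, aggrecan, the large proteoglycan of cartilage, had 8.48, 8.91 and 10.53 with TGF-β3 against 10.62, 10.62 and 11.98 without and fell by 1.77 ± 0.18 (adjusted p = 0.000564), with -2.14, -1.70 and -1.46 in the 3 donors. HAPLN1, the link protein that ties aggrecan to hyaluronan, had 9.12, 9.41 and 10.40 with TGF-β3 against 10.88, 10.86 and 11.61 without. It fell by 1.48 ± 0.18 (adjusted p = 0.00176). SOX9, the transcription factor that starts cartilage formation, had 8.47, 8.53 and 8.34 with TGF-β3 against 9.02, 8.79 and 9.14 without and fell by 0.54 ± 0.12 (adjusted p = 0.0248), and its partner SOX6 fell by 0.81 ± 0.14 (adjusted p = 0.00903). PRG4, lubricin, had 4.31, 4.45 and 6.80 with TGF-β3 against 6.52, 6.46 and 7.61 without and fell by 1.68 ± 0.34 (adjusted p = 0.0178), with donor 3 well above donors 1 and 2 in both groups. COL2A1, the collagen of cartilage, had 10.38, 10.15 and 8.66 with TGF-β3 against 9.27, 8.56 and 8.65 without. It was not called (0.91 ± 0.28, adjusted p = 0.0956), and the groups overlapped in donor 3, which differed by 0.01. MATN3, matrilin-3, had 6.58, 6.58 and 5.73 with TGF-β3 against 5.56, 5.72 and 5.30 without. It rose by 0.77 ± 0.17 (adjusted p = 0.0233). The calls of ACAN, HAPLN1 and SOX6 held without any 1 array. Those of SOX9 and PRG4 were lost without any of 5 arrays and those of MATN3 and WWP2 without any of 4.

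For hypertrophy and bone, 3 of 19 genes fell and none rose, with a median of -0.17. SP7, osterix, a transcription factor required for osteoblasts, had 7.53, 6.99 and 7.49 with TGF-β3 against 8.59, 7.82 and 9.42 without and fell by 1.28 ± 0.19 (adjusted p = 0.00477). OMD, osteomodulin, had 9.78, 9.81 and 10.42 with TGF-β3 against 11.11, 11.51 and 11.67 without and fell by 1.43 ± 0.12 (adjusted p = 0.000209), with -1.05 on a second probe set, and MEF2C, which drives hypertrophy, had 9.07, 8.37 and 9.03 with TGF-β3 against 9.85, 9.29 and 10.09 without (-0.92 ± 0.14, adjusted p = 0.0048). RUNX2, the main osteoblast regulator, was not called (-0.15 ± 0.09, adjusted p = 0.443), nor was COL10A1, a collagen of hypertrophic cartilage (0.15). All 3 calls held without any 1 array. Of 22 adipogenic and lipid storage genes, 1 rose and 3 fell, with a median of -0.06. Beside FABP4, which fell, and G0S2, which rose, PPARG, the regulator of fat formation, had 6.00, 5.77 and 6.21 with TGF-β3 against 6.75, 6.45 and 7.50 without and fell by 0.91 ± 0.20 (adjusted p = 0.0275), and ADIRF, an adipogenesis regulatory factor, fell by 1.32 ± 0.15 (adjusted p = 0.00107). The call of PPARG was lost without any of 5 arrays.

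Of 43 genes for growth factors, their receptors and binding proteins, 10 rose and 9 fell, with a median of -0.11. NRG1, neuregulin, had 5.82, 6.65 and 5.87 with TGF-β3 against 4.30, 4.14 and 3.90 without, the latter below the first quartile of the arrays. NRG1 rose by 2.00 ± 0.18 (adjusted p = 0.000359). HBEGF, another ligand of the epidermal growth factor receptor family, had 7.98, 7.63 and 8.18 with TGF-β3 against 6.59, 6.04 and 7.19 without. HBEGF rose by 1.32 ± 0.18 (adjusted p = 0.00292). EREG, epiregulin, of the same family, had 5.66, 5.80 and 6.64 with TGF-β3 against 7.49, 6.99 and 8.54 without, a fall by 1.64 ± 0.28 (adjusted p = 0.00903). FGF5 rose by 0.90 ± 0.11 (adjusted p = 0.00169). The IGF-binding proteins, which control access of insulin-like growth factors to their receptor, split. IGFBP2 had 11.64, 12.00 and 10.45 with TGF-β3 against 9.83, 9.67 and 8.51 without and rose by 2.03 ± 0.19 (adjusted p = 0.000418), and IGFBP7 rose by 0.39. IGFBP5 had 7.59, 7.60 and 8.09 with TGF-β3 against 9.86, 10.44 and 9.87 without and fell by 2.29 ± 0.28 (adjusted p = 0.00183), and IGFBP3 and IGFBP6 fell with differences of -1.35 and -0.56. Of the platelet-derived growth factors, PDGFA rose by 0.59 ± 0.13 (adjusted p = 0.0283), PDGFC fell by 0.86 ± 0.12 (adjusted p = 0.0026) and PDGFD fell by 0.70 ± 0.12 (adjusted p = 0.00954). FLT1, a receptor for vascular endothelial growth factor, rose by 0.99 ± 0.18 (adjusted p = 0.011). Of the 19 calls, 10 held without any 1 array, and those of FGF1, PDGFA, IGFBP3, IGFBP6, IGFBP7, FLT1, ANGPTL2, BDNF and GAS6 did not.

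Chemokine, cytokine and prostaglandin genes had 4 rises and 6 falls among 32, with a median of -0.16. CXCL3, a neutrophil chemokine like CXCL5, had 5.38, 5.35 and 5.09 with TGF-β3 against 7.94, 7.07 and 7.19 without and fell by 2.13 ± 0.15 (adjusted p = 0.000119). IL6 had 11.68, 11.06 and 12.21 with TGF-β3 against 9.78, 9.77 and 9.48 without and rose by 1.97 ± 0.26 (adjusted p = 0.00245), while IL6ST, the gp130 chain through which it signals, had 11.05, 11.05 and 11.16 with TGF-β3 against 11.51, 11.55 and 11.66 without and fell by 0.49 ± 0.08 (adjusted p = 0.00567). IL1R1, the interleukin-1 receptor, had 9.65, 9.55 and 9.59 with TGF-β3 against 10.59, 10.60 and 10.47 without and fell by 0.96 ± 0.07 (adjusted p = 0.000149). TNFAIP6, a hyaluronan-binding protein with anti-inflammatory action, had 6.40, 7.38 and 6.68 with TGF-β3 against 5.43, 5.29 and 5.15 without. The rise was 1.53 ± 0.26 (adjusted p = 0.00864). In these 5 genes every array with TGF-β3 lay on 1 side of every array without. In prostaglandin synthesis, PTGES, which makes prostaglandin E2, had 8.01, 8.05 and 7.25 with TGF-β3 against 7.12, 7.03 and 6.66 without and rose by 0.84 ± 0.18 (adjusted p = 0.0235), and PTGIS, which makes prostacyclin, had 9.54, 8.87 and 9.30 with TGF-β3 against 10.54, 10.08 and 10.45 without, a fall by 1.12 ± 0.11 (adjusted p = 0.000602). Of the 10 calls, those of PTGFR and PTGES did not hold without each array in turn. None of the 22 interferon-response genes rose and 6 fell, with a median of -0.15. MX1 had 5.33, 5.40 and 5.37 with TGF-β3 against 6.55, 6.64 and 7.09 without and fell by 1.39 ± 0.29 (adjusted p = 0.0214), RIGI, an RNA sensor, fell by 0.61 ± 0.07 (adjusted p = 0.00149), and IFIT3, OAS1Y, IFI6 and IRF9 fell with differences of -0.76, -1.02, -0.97 and -0.45. Of these, just the call of RIGI held without any 1 array.

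Of 38 Wnt genes, 3 rose and 3 fell, with a median of -0.01. DKK1, a secreted Wnt inhibitor, had 9.72, 8.85 and 10.79 with TGF-β3 against 8.77, 5.86 and 9.32 without. With TGF-β3 it rose by 1.80 ± 0.43 (adjusted p = 0.0366). Its groups overlapped, with donor 2 lowest in both. DKK3, a divergent relative, had 8.31, 8.90 and 8.85 with TGF-β3 against 9.71, 10.19 and 10.50 without and fell by 1.44 ± 0.13 (adjusted p = 0.000327). The receptor genes FZD8 and FZD4 fell by 0.97 ± 0.15 (adjusted p = 0.00604) and 0.71 ± 0.14 (adjusted p = 0.0162), and TCF7 and NKD1, which respond to Wnt, rose by 0.48 and 0.84. In the Notch pathway 2 genes rose and 2 fell among 16, with a median of -0.04. MFNG, which modifies Notch receptors, had 7.36, 7.73 and 8.16 with TGF-β3 against 6.15, 5.82 and 5.72 without and rose by 1.85 ± 0.20 (adjusted p = 0.000896), and NOTCH1 rose by 0.61 ± 0.12 (adjusted p = 0.0139). The ligand JAG1 had 8.19, 8.02 and 7.55 with TGF-β3 against 9.27, 9.49 and 9.03 without and fell by 1.34 ± 0.14 (adjusted p = 0.000704), and the coactivator MAML2 fell by 0.57 ± 0.09 (adjusted p = 0.00682). The calls of FZD8, DKK3, JAG1, MFNG and MAML2 held without any 1 array. That of NOTCH1 was lost without the donor 3 array lacking TGF-β3, and those of DKK1, FZD4, TCF7 and NKD1 without any of between 3 and 5 arrays.

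Of 35 measured genes of the hypoxia response outside glycolysis, 8 rose and 4 fell with TGF-β3 within the low-oxygen cultures, with a median of 0.22. CA9, carbonic anhydrase IX, a membrane enzyme that is a classical target of HIF-1, had 8.28, 9.11 and 7.87 with TGF-β3 against 6.77, 7.43 and 5.43 without. The gene rose by 1.88 ± 0.34 (adjusted p = 0.0108). Donor 2 was highest and donor 3 lowest in both groups, and leaving out the TGF-β3 array of donor 2 ended the call. VEGFA, the main angiogenic factor, had 12.49, 12.42 and 12.74 with TGF-β3 against 12.07, 11.91 and 12.05 without. It rose by 0.54 ± 0.09 (adjusted p = 0.00839). HIF1A rose by 0.29 ± 0.07 (adjusted p = 0.0428), whereas EPAS1, which codes for HIF-2α, had 8.32, 8.25 and 7.82 with TGF-β3 against 9.84, 9.81 and 9.70 without and fell by 1.65 ± 0.13 (adjusted p = 0.000188). EGLN1, the prolyl hydroxylase that marks HIF-α for degradation, had 11.09, 11.19 and 11.10 with TGF-β3 against 10.53, 10.84 and 10.29 without. The rise was 0.58 ± 0.11 (adjusted p = 0.016). PDK1, a kinase that inhibits pyruvate dehydrogenase, had 11.32, 11.57 and 11.32 with TGF-β3 against 10.90, 11.12 and 10.65 without and rose by 0.52 ± 0.10 (adjusted p = 0.0162). PDK3, VLDLR and PFKFB4 fell, with differences of -0.47, -0.76 and -0.46. STC2 and ERO1A rose by 0.96 and 0.54, and NDRG1 had 11.20, 11.02 and 11.13 with TGF-β3 against 11.46, 11.55 and 11.04 without and was not called (-0.23 ± 0.15, adjusted p = 0.435). Of the 12 calls, those of VEGFA, EPAS1 and PLOD2 held without any 1 array, and those of PDK1 and EGLN1 were lost without any of 4. When a whole donor was left out, whichever it was, VEGFA lost its call, while EPAS1 and PLOD2 kept theirs.

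Of 19 glycolysis genes, 5 rose and 1 fell, with a median of 0.15. The glucose transporter gene SLC2A3 had 8.94, 9.58 and 7.41 with TGF-β3 against 6.99, 6.84 and 5.72 without. With TGF-β3 it rose by 2.13 ± 0.24 (adjusted p = 0.00113). The more general transporter gene SLC2A1 had 11.33, 11.35 and 11.33 with TGF-β3 against 10.43, 10.18 and 9.92 without and rose by 1.16 ± 0.17 (adjusted p = 0.0039), with an SD among donors of 0.013 with TGF-β3 and 0.257 without. HK2, hexokinase 2, had 10.15, 10.08 and 10.28 with TGF-β3 against 9.38, 9.42 and 9.20 without. The gene rose by 0.83 ± 0.15 (adjusted p = 0.0118). SLC16A1, a lactate transporter, had 10.45, 10.48 and 10.43 with TGF-β3 against 9.74, 9.62 and 9.76 without and rose by 0.75 ± 0.07 (adjusted p = 0.000472), and PFKL, a phosphofructokinase, rose by 0.50 ± 0.12 (adjusted p = 0.036). ALDOC, an aldolase, had 8.35, 8.82 and 8.32 with TGF-β3 against 9.23, 9.22 and 9.06 without and fell by 0.68 ± 0.12 (adjusted p = 0.00958). The enzymes of the lower pathway, GAPDH, PGK1, ENO1, PKM and LDHA, were not called, with differences of 0.05, 0.24, 0.13, -0.09 and -0.02. The calls of the 3 transporter genes held without any 1 array. HK2 lost its call without any of 3 arrays, ALDOC without the TGF-β3 array of donor 3 and PFKL without any of 5.

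None of the 22 oxidative phosphorylation genes was called in limma's test, with 2 at an unadjusted p under 0.05, differences between -0.25 and 0.28 and a median of -0.02. None of 18 sterol and fatty acid synthesis genes was called either, with 2 at an unadjusted p under 0.05. In the serine, glycine and ATF4 pathway 2 of 26 rose, MTHFD1L and ALDH18A1, and 1 fell, VLDLR, with a median of 0.08, and none of these calls held without each array in turn. The donor medians of that list were 0.30 and 0.23 in donors 1 and 2 and -0.32 in donor 3. Cell-cycle genes were all above 0, 25 of 25, with a median of 0.28. Just CCNA2 (0.54 ± 0.13, adjusted p = 0.0434) and RRM2 (0.56 ± 0.11, adjusted p = 0.0135) were called, 8% of the list against 8.85% of all named genes. Neither call held without each array in turn. The median of this list was 0.09 in donor 1, 0.14 in donor 2 and 0.56 in donor 3. The cell-cycle inhibitor CDKN1A, given above, was lower in every donor.

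Surface markers of mesenchymal stromal cells had 2 rises and 8 falls among 22, with a median of -0.36. NT5E (CD73) had 10.90, 11.52 and 12.01 with TGF-β3 against 12.05, 12.75 and 12.62 without and fell by 1.00 ± 0.15 (adjusted p = 0.00523), and THY1 (CD90) had 11.77, 11.69 and 10.98 with TGF-β3 against 12.47, 12.40 and 11.52 without, a fall by 0.65 ± 0.12 (adjusted p = 0.0105). CD9, CDH11, CSPG4, PDGFRB and CD63 fell with differences of -0.81, -0.53, -0.64, -0.70 and -0.33. CDH2, N-cadherin, had 12.19, 12.54 and 10.83 with TGF-β3 against 10.71, 10.82 and 9.77 without and rose by 1.42 ± 0.15 (adjusted p = 0.000752), with donor 3 below donors 1 and 2 in both groups. The 8 falls left every marker well above the array medians on all 6 arrays. Of the 10 calls, 6 held without any 1 array, and those of THY1, ENG, CD9 and CD63 did not.

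Among 37 mesenchymal transcription factors, 7 rose and 9 fell, with a median of -0.19. The related repressors ZEB1 and ZEB2, which act in epithelial-mesenchymal transition, moved in opposite directions. ZEB1 had 10.61, 10.97 and 10.69 with TGF-β3 against 9.97, 10.17 and 9.53 without and rose by 0.87 ± 0.12 (adjusted p = 0.00251), and ZEB2 had 9.87, 9.83 and 9.82 with TGF-β3 against 10.91, 11.07 and 10.88 without and fell by 1.11 ± 0.10 (adjusted p = 4e-04), with -0.82 on a second probe set. MEOX2, a homeobox factor, had 6.38, 6.81 and 7.46 with TGF-β3 against 8.15, 8.79 and 8.57 without and fell by 1.62 ± 0.15 (adjusted p = 0.000351). OSR1, NFATC1 and EBF1 fell by 1.37 ± 0.20 (adjusted p = 0.00364), 1.08 ± 0.15 (adjusted p = 0.00354) and 1.04 ± 0.17 (adjusted p = 0.0068). FOXF1, FOXP1 and ETS1 rose by 1.04, 0.84 and 0.78. The tendon factors SCX and MKX rose by 0.49 ± 0.11 (adjusted p = 0.0246) and 0.55 ± 0.10 (adjusted p = 0.0128). Of the 16 calls, 9 held without any 1 array, and those of TWIST2, PRRX1, PRRX2, FOXF1, SCX, MKX and ETV1 did not.

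Immediate early and KLF genes held 3 rises and 3 falls among 29, with a median of -0.11. FOS had 7.61, 8.31 and 7.79 with TGF-β3 against 6.90, 6.59 and 6.61 without and rose by 1.20 ± 0.21 (adjusted p = 0.00835), MYC had 9.81, 9.77 and 9.85 with TGF-β3 against 9.16, 9.07 and 9.22 without and rose by 0.66 ± 0.07 (adjusted p = 0.000801), and KLF4 had 7.20, 7.49 and 7.34 with TGF-β3 against 8.00, 8.43 and 7.89 without and fell by 0.76 ± 0.13 (adjusted p = 0.00735). SPRY2 and SPRY4, inhibitors of receptor tyrosine kinase signalling, fell by 0.89 ± 0.10 (adjusted p = 0.000911) and 1.29 ± 0.23 (adjusted p = 0.0108). SPRY4 lost its call without the donor 1 array lacking TGF-β3 and MAFF, which rose by 0.58, without any of 5. Of 25 retinoid and aryl hydrocarbon receptor genes, 2 rose and 5 fell, with a median of 0.01. AHR, the receptor itself, had 6.10, 6.03 and 6.71 with TGF-β3 against 7.87, 7.07 and 8.28 without and fell by 1.46 ± 0.17 (adjusted p = 0.00131), and its targets CYP1B1, given above, and CYP1A1 (-1.47 ± 0.30, adjusted p = 0.0188) fell too, while TIPARP rose by 0.57 ± 0.10 (adjusted p = 0.00962). RARG, a retinoic acid receptor, had 8.31, 8.41 and 8.28 with TGF-β3 against 9.33, 9.24 and 9.08 without and fell by 0.88 ± 0.09 (adjusted p = 0.000648). Of these 7 calls, those of RXRA, CYP1A1 and TIPARP did not hold without each array in turn. Of 5 peptidylarginine deiminase genes, PADI4 alone was called, and the others differed by between -0.13 and 0.14.

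Markers of other cell types were called in 3 genes, 1 each of 11 endothelial, 6 osteoclast and 12 muscle and neural markers. Among all named genes 8.85% were called, so these few calls do not set the marker lists apart. PECAM1, an adhesion molecule of endothelial cells and platelets, had 8.34, 8.06 and 8.86 with TGF-β3 against 6.45, 6.33 and 6.17 without and rose by 2.11 ± 0.23 (adjusted p = 0.000969), a call that held without any 1 array and without any donor. The other 10 endothelial markers were not called, among them CDH5 (0.09), VWF (-0.22), EMCN (-0.02) and ERG (0.44 ± 0.16, adjusted p = 0.159). EMCN lay below the first quartile on all 6 arrays, while ERG lay between 9.51 and 10.67. Of the 11 markers, PECAM1 included, 3 had an unadjusted p under 0.05 in limma's test. The mean of the 11 endothelial markers, which includes PECAM1, was 6.29 to 6.40 with TGF-β3 and 6.06 to 6.20 without. The median difference of the list was -0.02, with 5 members above 0 and 6 below, so the list as a whole did not shift upward. S100B, in the muscle and neural list, had 11.34, 11.55 and 11.48 with TGF-β3 against 11.09, 10.96 and 10.88 without and rose by 0.48 ± 0.11 (adjusted p = 0.0313), a call that was lost without any of 5 arrays, and the osteoclast marker CTSK fell as given above. Of 6 erythroid markers 0 were called and 1 had an unadjusted p under 0.05, with a mean signal of 5.34 to 5.37 with TGF-β3 and 5.17 to 5.23 without. The part of other cell types in these results was not tested.

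**Figure D3:**
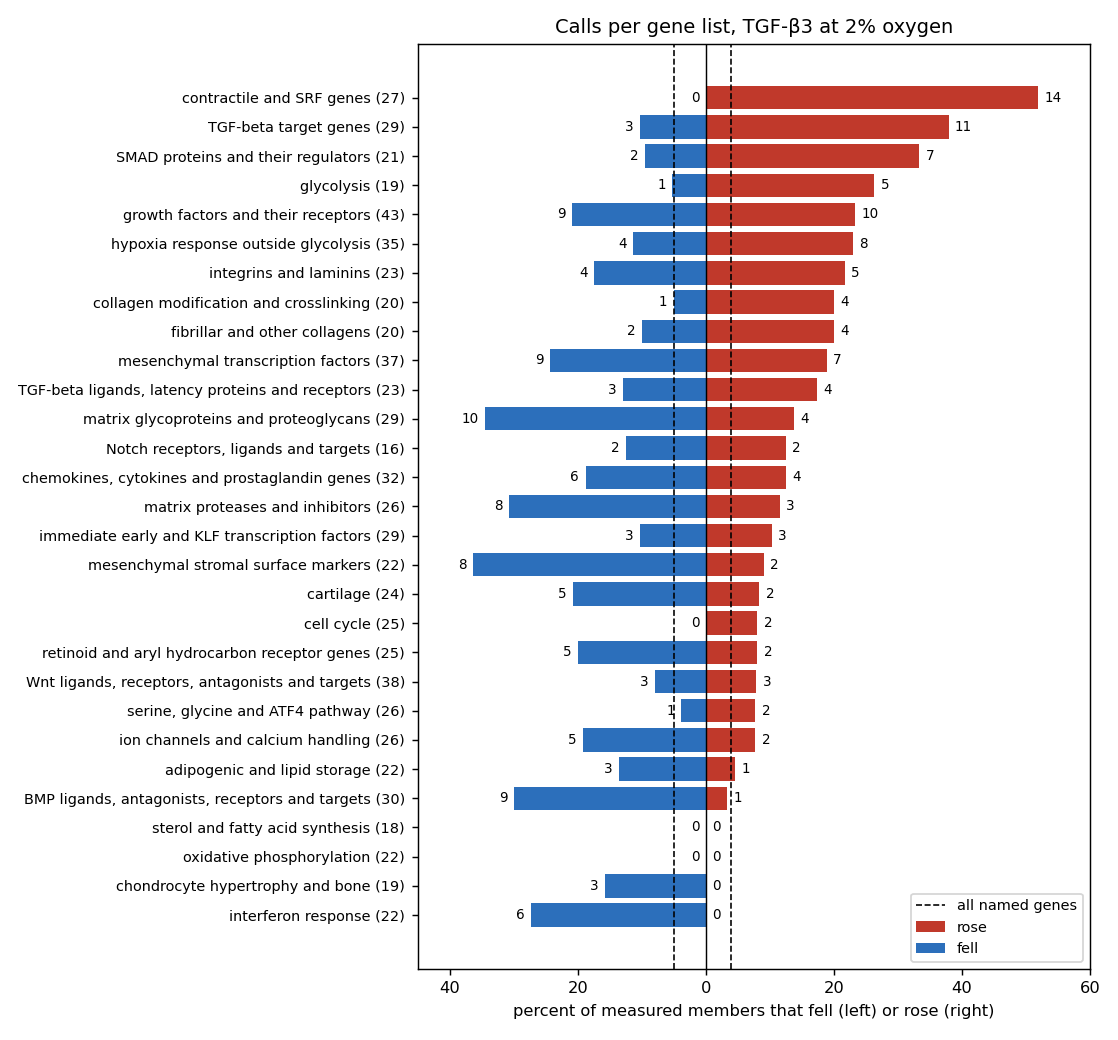
Share of the measured members of each gene list that rose (right, red) or fell (left, blue) with TGF-β3 at 2% oxygen at an adjusted p under 0.05, in percent, with the number of genes beside each bar and the number measured in brackets. Dashed lines are the shares among all named genes, 3.88% higher and 4.98% lower. Contractile genes have 14 rises and 0 falls, BMP genes 1 rise and 9 falls, and oxidative phosphorylation and sterol genes have none.

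The same cells at 21% oxygen show how far the response is shared between oxygen tensions. There, TGF-β3 changed 1701 probe sets (6.35%), 789 higher and 912 lower. Both tests called 1205 probe sets, 64.5% of those called at 2% and 70.8% of those called at 21%, and 1202 of these had the same sign. The 2 tests come from 1 fit with the same spread estimate for each probe set, so their calls are not independent. Of the 1869 probe sets called at 2%, 1823 had the same sign at 21% oxygen and 46 the opposite sign. The effects at 2% and 21% correlated at 0.751 over all probe sets, a description across probe sets of effects that share donors but no array. Probe sets called at 2% had a median size of 0.59 at 2% and 0.51 at 21%, and those called at 21% had 0.55 at 2% and 0.60 at 21%, so each selection was somewhat larger where it was made. A direct test of the difference between the effects called 0 probe sets in limma (0% of those tested, smallest adjusted p = 0.12), with 1157 at an unadjusted p under 0.05 (4.32%). Leaving out donor 3 called 1. The median half-width of the 95% confidence interval of this difference was 0.34 log2 units, before any adjustment for the number of probe sets tested. Of the 664 probe sets called at 2% and not at 21%, 159 had an unadjusted p under 0.05 for the difference. Because the 664 were chosen by these same effects, that count cannot show a response confined to 2% oxygen.

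The genes of largest change at 2% oxygen varied in how near their effect at 21% lay. ALDH1A1 differed by 5.45 at 2% and 5.27 at 21% oxygen, PADI4 by 4.83 and 4.61, ABI3BP by -5.60 and -5.69, and FABP4 by -4.36 and -4.57. For PADI4 the 95% confidence interval of the difference between effects ran from -0.26 to 0.69, and for ABI3BP from -1.69 to 1.87. The interval left out 0 for LRRN1, which had -2.49 at 2% and -1.38 at 21%, a difference of -1.10 with an interval from -1.94 to -0.26, and for CXCL5, which had -2.58 at 2% and -1.81 at 21%, a difference of -0.77 with an interval from -1.37 to -0.16. CXCL14 had -3.12 at 2% and -1.87 at 21%, a difference of -1.25 with an interval from -3.31 to 0.81. DPT had 2.40 at 2% and 3.29 at 21%, a difference of -0.90 with an interval from -2.12 to 0.33, and the intervals of CXCL14 and DPT held 0. PMEPA1, SKIL and SMAD7 had 1.87, 1.22 and 0.47 at 2% and 1.93, 1.24 and 0.67 at 21%. The contractile list had 14 rises at 2% and 15 at 21%, with medians of 0.41 and 0.43. BMP genes had 9 falls and 1 rise at 2%, and 5 falls and no rise at 21%, and the hypoxia list 8 rises and 4 falls at 2%, and 4 rises and 2 falls at 21%. Whether these counts differ was not tested.

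Among named genes, UNC5C had the smallest p for a difference between the effects. At 21% oxygen its signal was 6.42, 6.72 and 7.22 with TGF-β3 against 7.59, 7.82 and 8.54 without. The effect was -1.86 at 2% and -1.19 at 21%, and the difference between them was -0.66, with a 95% confidence interval from -0.92 to -0.40 (limma, adjusted p = 0.999). The other named genes had an adjusted p of 0.999 or 1 for this difference, so their intervals describe single genes and take no account of the number tested. TNFSF13, a cytokine of B cells, had -0.80 at 2% and -0.26 at 21%, a difference of -0.53 with an interval from -0.77 to -0.30. RIBC2 had -0.45 at 2% and 0.15 at 21%, a difference of -0.60 with an interval from -0.87 to -0.33. PROX1, a transcription factor of lymphatic vessels, had -0.32 at 2% and 0.29 at 21%, a difference of -0.61 with an interval from -0.91 to -0.31, and all 12 of its signals lay below the first quartile of the arrays. For the microRNA gene MIR218-2 the values were -0.11 at 2% and 0.56 at 21%, a difference of -0.66 with an interval from -0.99 to -0.34. Its signals ran from 4.20 to 5.16, near or below the first quartile. HCN2, a pacemaker channel, had 0.35 at 2% and 0.91 at 21%, a difference of -0.56 with an interval from -0.83 to -0.28, so its effect was the larger one at 21%.

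In the other direction, LAMTOR5, a subunit of the complex that anchors mTORC1 to lysosomes, had 0.20 at 2% and -0.36 at 21%, a difference of 0.56 with an interval from 0.30 to 0.82. ARHGEF5 had 0.96 at 2% and 0.47 at 21%, a difference of 0.49 with an interval from 0.24 to 0.73. VAMP4, a vesicle fusion protein, had 0.35 at 2% and -0.12 at 21%, a difference of 0.48 with an interval from 0.22 to 0.73. UPK1B, a tetraspanin of urothelium, had 0.73 at 2% and -0.05 at 21%, a difference of 0.78 with an interval from 0.34 to 1.22. In ARHGEF5 the 3 arrays with TGF-β3 were above the 3 without at both tensions, and in UPK1B at 2% alone.

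From the lists, CA9, TGFB2, HAS2, MMP13, CXCL3 and SOX9 were chosen, after their values were seen, for unequal effects at the 2 tensions. CA9 at 21% oxygen had 5.39, 6.11 and 5.96 with TGF-β3 against 5.56, 5.38 and 5.07 without. Its effects were 1.88 at 2% and 0.49 at 21%, a difference of 1.39 with an interval from 0.32 to 2.47. All 6 arrays at 21% lay below the lowest array at 2% with TGF-β3. TGFB2 at 21% had 10.75, 10.66 and 10.38 with TGF-β3 against 9.92, 9.99 and 10.21 without. Its arrays with TGF-β3 covered nearly the same range at both tensions, and the effects were 1.24 at 2% and 0.56 at 21%, a difference of 0.68 with an interval from 0.24 to 1.12. HAS2 at 21% had 7.38, 6.82 and 7.99 with TGF-β3 against 7.54, 7.21 and 7.82 without, and its effects were 0.61 at 2% and -0.13 at 21%, a difference of 0.74 with an interval from 0.33 to 1.15. MMP13 had -1.63 at 2% and -0.44 at 21%, a difference of -1.19 with an interval from -1.97 to -0.42. CXCL3 fell at both tensions, with -2.13 at 2% and -1.37 at 21%, a difference of -0.76 with an interval from -1.22 to -0.29. SOX9 at 21% had 8.51, 8.57 and 8.44 with TGF-β3 against 8.37, 8.58 and 8.69 without, so that its groups overlapped there, and its effects were -0.54 at 2% and -0.04 at 21%, a difference of -0.50 with an interval from -0.87 to -0.13. None of these differences passed the adjustment over all probe sets.

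**Figure D4:**
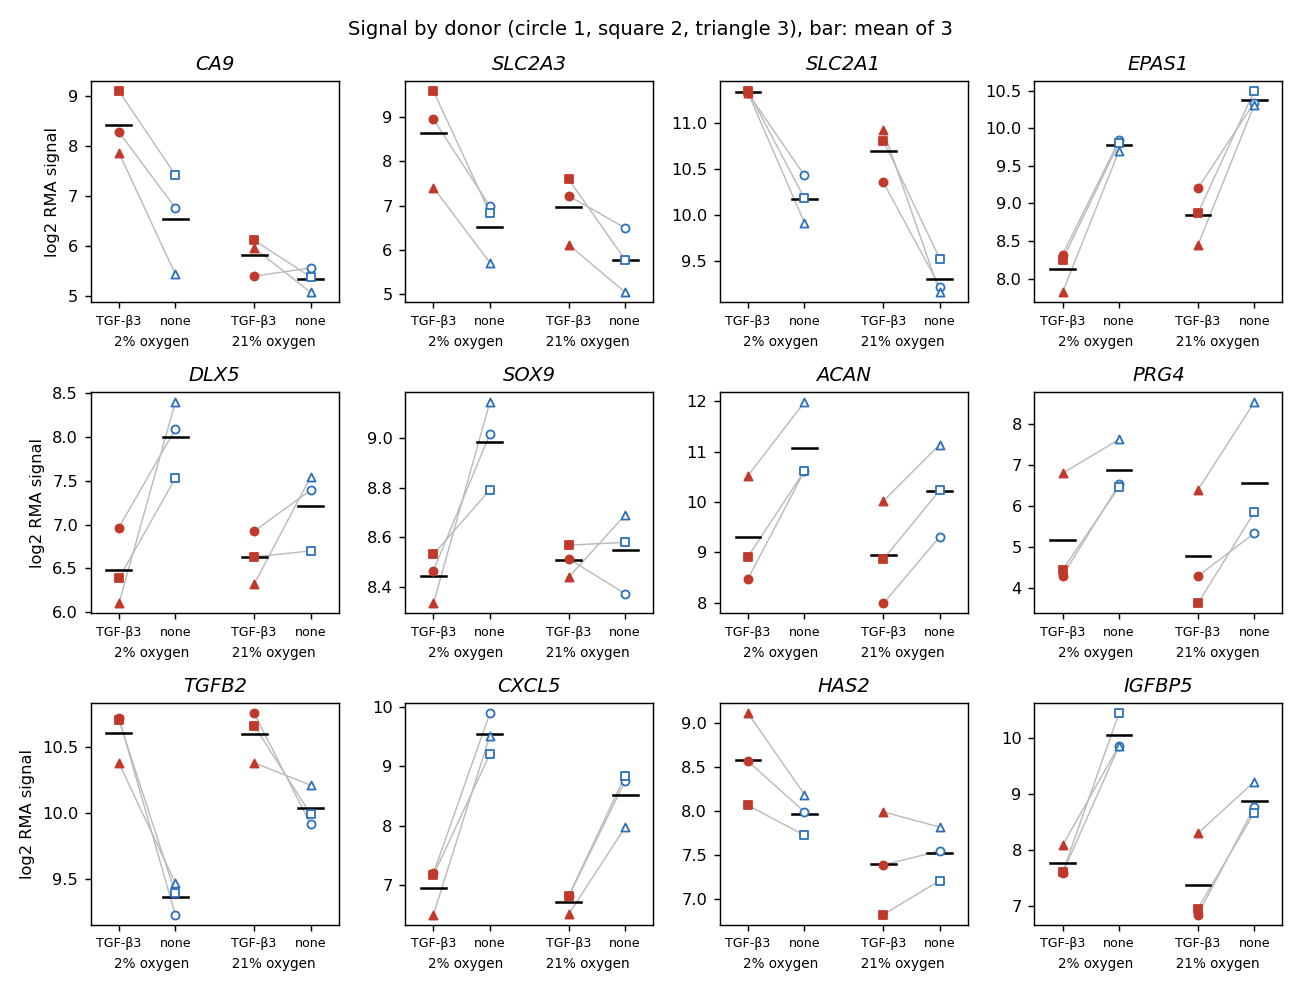
Log2 RMA signal of 12 genes on all 12 arrays, at 2% oxygen with and without TGF-β3 (left pair) and at 21% oxygen with and without it (right pair). Red filled symbols are arrays with TGF-β3, open blue symbols arrays without, lines join the arrays of a donor and bars are means of 3. CA9 with TGF-β3 is highest at 2% oxygen, and EPAS1 and ACAN are lower with TGF-β3 in every donor at both tensions.

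**Figure D5:**
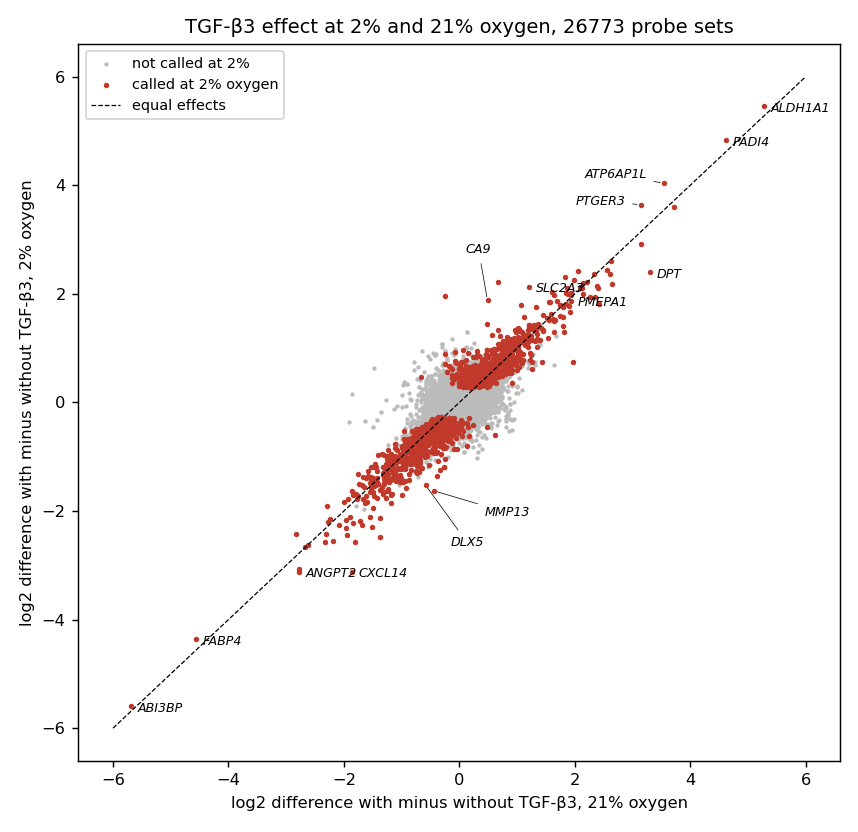
Effect of TGF-β3 at 2% oxygen (vertical) against its effect at 21% oxygen (horizontal), as log2 differences, for 26773 probe sets, with the 1869 called at 2% in red and a dashed line of equal effects. The extremes ALDH1A1, PADI4, FABP4 and ABI3BP lie near the line, and CA9, MMP13 and DLX5 lie off it.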

How the data were processed

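RNA of 12 cultures was measured on an Affymetrix bovine whole-transcript array, and the deposited table gives log2 values per probe set after robust multi-array averaging (RMA) by the authors, with RMA and Partek 6.6 named in the submitters' processing notes. The log2 scale follows from the range of the values, and how probe sets were filtered is not given in the sources used here. Samples were grouped and paired by their titles, since the short codes in the descriptions give the third donor another number. Cultures of the same donor deviated together from their group means (correlations of 0.177 to 0.602 over 18 pairs, against -0.44 to 0.1 over 36 pairs of different donors), and donor was a block. One model over all 12 arrays (limma 3.58.1, R 4.3.3, 6 residual degrees of freedom) gave the effect at each oxygen tension and their difference, with Benjamini-Hochberg adjustment over 26773 probe sets. The annotation given for the array names 18550 probe sets with 1 symbol, 595 with several and 7628 with none here, and the probe set of highest mean signal stood for a gene with several, which left 18087 genes.

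Members and gene lists were chosen with earlier results of these data known. The rule for named genes took the 12 largest rises and falls, the 5 smallest p-values each way, all members of the TGF-β lists, up to 6 called members of every other list, the 6 smallest p-values each way for the difference and a set of check genes, not all of which are reported here. The 35 lists held 850 different genes, some of them in more than 1 list, and 790 were measured. Alternatives were no block, a random block, the 6 arrays of 1 tension alone, 2 other normalisations, a filter on dim probe sets, an intensity trend, no variance moderation, 1 probe set per symbol, stricter thresholds and leaving out each array or donor. The fit was tested on simulated data.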

Additional observations from a re-analysis of the deposited data

How the results depend on the processing

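At 2% oxygen, 817 probe sets were called with no replicate block, where donors were not paired, against 1869 with it. The 6 hypoxic arrays alone gave 529 with the block, no variance moderation 1197, a 2-fold minimum 345 and an adjusted p under 0.01 748. The count lay between 242 and 1396 when an array or a donor was left out, and between 1559 and 2494 with a random block, 2 other normalisations, a filter on dim probe sets, an intensity trend or 1 probe set per symbol. At 21% oxygen, 736 were called with no block, 636 with its 6 arrays alone, 306 at 2-fold and 644 at an adjusted p under 0.01, and between 181 and 1068 without an array or a donor, against 1701. The difference between tensions had 0 calls under every alternative run except the one without donor 3, which had 1. Of 184 named genes called at 2% oxygen, 106 were called with no block, 153 with a random block, 101 with the 6 arrays alone, 122 with no moderation, 182 after quantile normalisation, 184 with equal medians, between 130 and 146 without 1 array and between 69 and 133 without 1 donor. No named gene's called difference changed sign under these alternatives, whose leave-one-out fits rest on fewer samples. The cause of the other changes was not tested. The number of arrays and signals near the first quartile, where background was not measured, limit what can be told.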

Other observations

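Of 26 genes for ion channels and calcium handling, 2 rose and 5 fell with TGF-β3 at 2% oxygen, with a median difference of -0.05. KCNQ5, a voltage-gated potassium channel, had 8.56, 8.54 and 8.66 with TGF-β3 against 7.85, 7.41 and 7.76 without, and rose by 0.91 ± 0.10 (limma, adjusted p = 0.000929). ANO1, a calcium-activated chloride channel, had 7.12, 6.04 and 5.96 with TGF-β3 against 5.82, 5.47 and 5.50 without (0.78 ± 0.19, adjusted p = 0.0442), and donor 1 was highest in both groups. TRPV4, a calcium channel that responds to osmotic and mechanical stimuli in chondrocytes, had 7.94, 7.47 and 8.31 with TGF-β3 against 8.68, 7.83 and 9.19 without (-0.66 ± 0.13, adjusted p = 0.0178), with every donor lower and the groups overlapping. CACNA1G, CACNA2D1, KCNMA1 and ATP2B4 fell, with differences of -0.78, -0.49, -0.41 and -0.37. The calls of KCNQ5, CACNA2D1 and KCNMA1 held without any 1 hypoxic array, and those of ANO1, TRPV4, CACNA1G and ATP2B4 did not. When a whole donor was left out, whichever it was, CACNA2D1 and KCNMA1 lost their calls, while KCNQ5 kept its call.

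Among called probe sets that are unnamed here, the largest change was that of probe set 12892163, with 5.51, 6.90 and 4.25 with TGF-β3 against 3.13, 3.28 and 3.17 without (2.36 ± 0.42, adjusted p = 0.0104). Probe set 12835528 differed by 2.31, 12882759 by -2.31 and 12915401 by 2.26. Probe set 12676799 had the smallest p for the difference between tensions, with an effect of 0.47 at 2% and -0.67 at 21% oxygen (limma, adjusted p = 0.12). Its effect had the same sign in the 3 donors at each tension, upward at 2% and downward at 21%.

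Some uncalled genes rested on 1 donor and were picked after their values were seen. MMP3, a matrix metalloproteinase, had 4.30, 4.40 and 3.82 with TGF-β3 against 4.64, 4.74 and 9.05 without (adjusted p = 0.303). CD36, a fatty acid receptor, had 4.37, 4.15 and 4.96 with TGF-β3 against 4.51, 4.36 and 7.67 without (adjusted p = 0.269), and MMP1 had 8.07, 8.41 and 8.24 against 8.10, 8.26 and 10.73 (adjusted p = 0.388). In each of these, as in CXCL14, the donor 3 array at 2% oxygen without TGF-β3 stood above the other 5 hypoxic arrays.

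Several further uncalled genes had differences of about 1 log2 unit. HGF, hepatocyte growth factor, had 9.36, 9.40 and 9.58 with TGF-β3 against 10.73, 10.66 and 10.34 without (-1.13 ± 0.29, adjusted p = 0.0527), and the groups did not overlap. CXCL12, the chemokine by which marrow stroma retains haematopoietic cells, had 10.88, 10.07 and 11.60 against 12.10, 11.93 and 11.77 (-1.09 ± 0.32, adjusted p = 0.0834). ADIPOQ, adiponectin, had 6.82, 6.93 and 7.43 against 8.27, 8.19 and 7.97 (-1.08 ± 0.32, adjusted p = 0.0781). Noggin, NOG, a BMP antagonist, had 5.29, 4.78 and 7.50 against 4.95, 4.17 and 5.99 (0.82 ± 0.25, adjusted p = 0.089), and was higher with TGF-β3 in every donor.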
